A study of Mus musculus with 9 samples.

Results

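The genes of 9 myeloid C-type lectin receptors were examined: Clec4d, Clec4e, Clec4n, Clec7a, Clec5a, Clec12a, Clec4a1, Clec4a2 and Clec4a3. They were found by gene symbol, and all 9 had a value in every sample among the 23284 gene symbols of the expression files. Expression had been measured by RNA-sequencing in myeloid-derived suppressor cells (MDSCs), immature myeloid cells that expand in tumour-bearing hosts and restrain immune responses. The 9 samples formed 3 groups of 3 each. PMN-MDSCs, the neutrophil-like subset, and WT Mo-MDSCs, the monocyte-like subset, came from p16/p21 wild-type C57BL/6J mice. The third group was labelled p16/p21 double knockout (DKO) Mo-MDSCs, from mice of the strain C57BL/6 in which both cyclin-dependent kinase inhibitor genes are deleted throughout the animal, so that every cell of the host and not the Mo-MDSC alone lacks them. All mice carried spindle cell tumour (SCT) cells, a mouse skin tumour line that itself came from a p16-deficient animal, and all cells were taken from the spleen. According to the methods of the study, Ly6G+ cells were collected as PMN-MDSCs and Ly6G- Gr-1+ cells as Mo-MDSCs with magnetic beads 3 weeks after tumour injection. The labels give an age of 3 weeks, which is the interval after injection in those methods. The strain name differs between the WT and DKO groups, so strain and genotype cannot be told apart. The labels do not say whether samples of a group came from separate mice, and p-values measure the spread between these samples, which may be technical.

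C-type lectin receptors are membrane proteins by which neutrophils, monocytes, macrophages and dendritic cells recognise sugars and lipids of fungi and mycobacteria, and molecules released by dying cells. Activating members signal through the kinase SYK, either by an adaptor with a tyrosine motif (FcRγ, encoded by Fcer1g, or DAP12, encoded by Tyrobp) or by a tyrosine motif of their own. SYK then acts through CARD9, BCL10 and MALT1 on NF-κB and on cytokine genes such as Il1b. Inhibitory members carry an inhibitory tyrosine motif (ITIM) that recruits phosphatases such as SHP-1, the product of Ptpn6.

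By this division Clec4d (MCL), Clec4e (Mincle), Clec4n (Dectin-2), Clec7a (Dectin-1) and Clec5a (MDL-1) are activating receptors, Clec12a (MICL) and Clec4a2 (DCIR) are inhibitory ones, and Clec4a1 and Clec4a3 encode relatives of DCIR. The first 60 codons of each gene, which include the cytoplasmic tail of these proteins, were searched for an ITIM-like pattern (isoleucine, valine, leucine or serine, then any residue, tyrosine, any 2 residues, and isoleucine, valine or leucine) and for tyrosine, any 2 residues and leucine. The 3 runs below are shown because they are the matches nearest to the start codon, in the gene with its own activating motif and in the genes of the 2 inhibitory receptors. They are coding sequence of GENCODE M21 (GRCm38), written 5′ to 3′ with the tyrosine codon in capitals, which is codon 15 of Clec7a and codon 7 of both Clec12a and Clec4a2.
Clec7a: gatggaTATactcaatta
Clec12a: attgttTATgcaaatctc
Clec4a2: atcactTATgcagaagtg
Clec12a and Clec4a2 match the ITIM-like pattern, and Clec7a matches the pattern with leucine. The ITIM-like pattern was also matched by Clec4n (codon 41) and Clec4a3 (codon 53), further from the start codon. The matches of Clec12a and Clec4a3 fitted the pattern with leucine as well, and no match was found in Clec4d, Clec4e, Clec5a or Clec4a1. Over the whole 60 codons the patterns therefore do not divide the activating from the inhibitory members. The ITIM-like matches at codon 7 were those of the 2 inhibitory receptors only. Where the cytoplasmic tail ends was not determined, so the matches further from the start codon may lie outside it. Of 21534 protein-coding genes, 7.54% held the ITIM-like pattern and 13.4% the pattern with leucine in the same stretch. A match is a description of the sequence and does not show that the motif is used.

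All 9 genes lie on chromosome 6 (GENCODE M21, GRCm38). The 6 Clec4 genes among the 9 occupy chr6:122921848-123289870, a span of 368 kb, in the order Clec4a1, Clec4a3, Clec4a2, Clec4n, Clec4d and Clec4e. Clec4d (chr6:123262111-123275265, + strand) and Clec4e (chr6:123281789-123289870, - strand) point towards each other with 6.52 kb between their ends. Clec12a (chr6:129342691-129365303, + strand) and Clec7a (chr6:129461591-129472779, - strand) lie further along with 96.3 kb between them, and Clec5a (chr6:40574894-40585821, - strand) is far from the other 8. Because these genes arose by duplication, the transcripts were compared in windows of 75 bases, the read length. For 8 of the 9 genes no window occurred in a transcript of another gene. For Clec4a2, 97 of 2990 windows (3.24%) were shared with Clec4a4 or Clec4b1, and its values may include reads divided between these copies.

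Values are FPKM, fragments per transcript length and sequencing yield, which allow levels of different genes to be set side by side. Total FPKM ranged from 494252 to 916642 and relative depth from 0.809 to 1.31 of WT Mo-MDSC replicate 1, while the number of reads is unknown. The labelled cell types were seen in some of their markers: Cxcr2 was 590 to 875 FPKM in PMN-MDSCs and 5.37 to 18.6 in the Mo-MDSC samples, and Ccr2 was 2.36 to 2.51 in PMN-MDSCs and 160 to 362 in the Mo-MDSC samples. Among 6 monocyte markers (Ccr2, Csf1r, Cx3cr1, F13a1, Ly6c2 and Ms4a6c) Csf1r overlapped between PMN-MDSCs and WT Mo-MDSCs, with means of 753 and 797 FPKM. Among 9 neutrophil markers Ngp, Camp, Ltf and Cd177 overlapped between these 2 groups. Ly6g, used for the sort, was not analysed here. Markers of other spleen cells were present in every group. Summed FPKM of 8 macrophage markers (C1qa, C1qb, C1qc, Vcam1, Spic, Cd5l, Mertk and Axl) was 5779 to 6875 for PMN-MDSCs, 3681 to 4732 for WT Mo-MDSCs and 3974 to 6062 for the group labelled DKO, and that of 5 B cell markers was 1434 to 1635, 1020 to 1148 and 1092 to 1373 in the same order. None of the markers in either list was at 0 in a whole group. The deleted genes did not separate the groups labelled WT and DKO. Cdkn1a (p21) was 8.18, 6.46 and 8.04 FPKM in WT Mo-MDSCs and 5.55, 8.52 and 6.00 FPKM in the samples labelled DKO. Cdkn2a (p16 and Arf) was 0.718, 0.772 and 0.432 FPKM in WT Mo-MDSCs and 0.258, 0.586 and 0 FPKM in the samples labelled DKO. FPKM over a whole gene includes transcript outside a deleted part, and the deleted exons are not given in the sources used here, so these values do not check the labels. Directions for DKO Mo-MDSCs below are those of the samples so labelled.

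The first comparison asks how the receptors differ between the neutrophil-like and the monocyte-like subset of WT mice. All 9 genes passed the filter on low values, and 7 changed at an adjusted p-value below 0.05 (limma on log2(FPKM + 0.1), Benjamini-Hochberg over 11491 genes). The activating receptors Clec4d, Clec4e, Clec7a, Clec4n and Clec5a fell in WT Mo-MDSCs, and the DCIR relatives Clec4a1 and Clec4a3 rose. The inhibitory receptors Clec12a and Clec4a2 did not pass the test. These were 2 genes higher and 5 lower, while 18.5% of all genes tested were called higher and 20.6% lower. The groups did not overlap for the same 7 genes, where 26.2% of all genes were free of overlap in the higher direction and 26.4% in the lower. The median log2 difference of the 9 genes was -0.84, beside 0.01 over all genes tested. Scaling every sample to the same total FPKM moved the median of all genes to 0.45 and the calls over all genes from 2121 higher and 2371 lower to 5916 higher and 964 lower. Relative to either scale Clec4d, Clec4e, Clec7a and Clec5a remained lower and Clec4a1 and Clec4a3 higher, while Clec4n, Clec12a and Clec4a2 depended on it as given below. In bulk samples fewer cells of a type and less RNA per cell cannot be told apart.

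**Figure D1:**
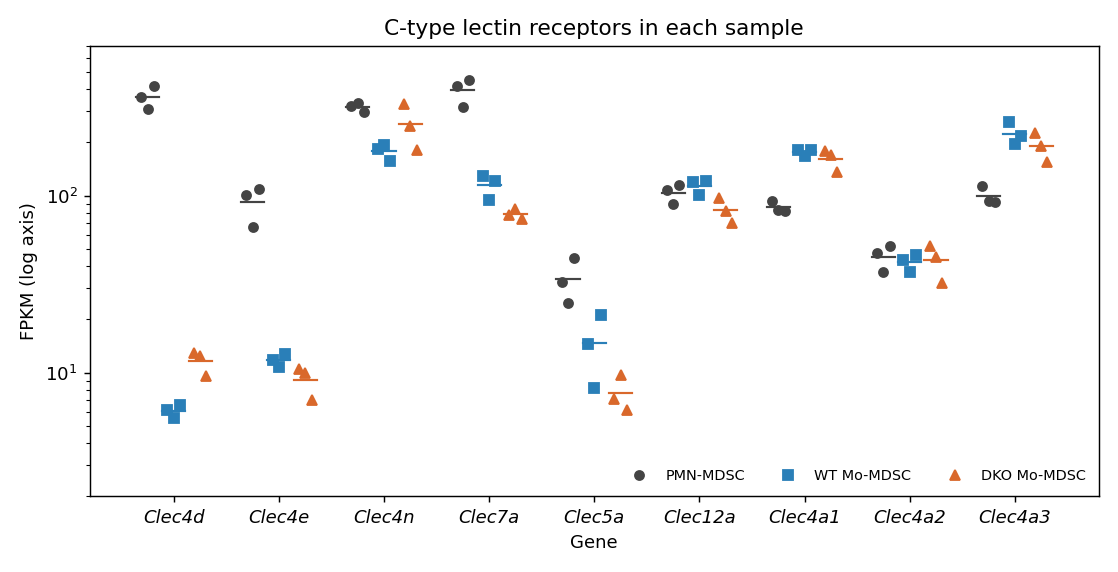
FPKM of the 9 receptor genes (log axis) in each of the 9 samples, with 3 symbols per group and a line at the group mean. Clec4d lies between 309 and 417 FPKM in PMN-MDSCs and between 5.54 and 6.55 FPKM in WT Mo-MDSCs, while Clec4a1 and Clec4a3 were above the PMN-MDSC samples in every Mo-MDSC sample.

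Clec4d, whose product binds mycobacterial glycolipids with Mincle, had the largest difference of the 9. It was measured at 361, 309 and 417 FPKM in PMN-MDSCs and at 6.13, 5.54 and 6.55 FPKM in WT Mo-MDSCs. The mean fell 59.7-fold, and the log2 difference was -5.87 (SE 0.124, n = 3 per group; limma adjusted p = 1.14e-06). In WT Mo-MDSCs Clec4d stood at 1.68% of its PMN-MDSC mean, beside a range of 1.66% to 74.5% and a median of 21.1% over 9 neutrophil markers. Of these Cxcr2 (1.66%), Mmp9 (1.96%) and Retnlg (2.07%) were nearest to it, Mmp8 (13.5%) and S100a8 (21.1%) were higher, and Ltf (59.3%), Cd177 (70.3%), Ngp (70.5%) and Camp (74.5%) were highest. The fit without a block called 5 of the 9 markers lower, and the fit blocked by replicate number called all 9 lower.

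Clec4e encodes Mincle, which binds trehalose dimycolate of mycobacteria and a nuclear protein released by dead cells. Its values were 101, 66.3 and 109 FPKM in PMN-MDSCs and 11.7, 10.7 and 12.8 FPKM in WT Mo-MDSCs. The groups did not overlap, and the mean fell 7.84-fold (log2 difference -2.93, SE 0.187, n = 3 per group; limma adjusted p = 5.01e-05). The fall of Clec4d was larger than that of its neighbour, so that their order turned over. The ratio of Clec4d to Clec4e was 3.58, 4.66 and 3.83 in PMN-MDSCs, but only 0.523, 0.517 and 0.512 in WT Mo-MDSCs. This ratio was chosen after the values had been seen, and it does not depend on how a sample was scaled. On the log2 scale it differed by -2.95 (SE 0.115), with p = 0.1 in a two-sided exact permutation test. The SE and the test took the samples as unpaired, and this is the smallest p-value that 3 unpaired samples against 3 allow.

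Clec7a encodes Dectin-1, the receptor for fungal beta-glucan that carries the tyrosine motif shown above. It had the highest mean of the 9 genes in PMN-MDSCs, at 418, 318 and 450 FPKM, although Clec4n was higher in replicate 2. In WT Mo-MDSCs it was 128, 93.8 and 121 FPKM, and the groups were far apart. The mean fell 3.46-fold (log2 difference -1.79, SE 0.168, n = 3 per group; limma adjusted p = 2.57e-04).

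Clec4n encodes Dectin-2, which binds mannans of fungi and signals through FcRγ. Its values were 320, 333 and 298 FPKM in PMN-MDSCs and 182, 194 and 158 FPKM in WT Mo-MDSCs. Every WT Mo-MDSC sample was below every PMN-MDSC sample, but the mean fell only 1.78-fold (log2 difference -0.84, SE 0.0997, n = 3 per group; limma adjusted p = 7.77e-04). After scaling every sample to the same total FPKM the difference was -0.39 and the adjusted p-value in the limma fit 0.0650. Of the 8 macrophage markers 5 were called lower in WT Mo-MDSCs, and after scaling to the same total none was called lower and 1 higher, and in the fit blocked by replicate number 6 were lower and 1 higher. The part of macrophage RNA in the difference of Clec4n was not tested.

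Clec5a encodes MDL-1, which pairs with DAP12 and DAP10. It was the least abundant of the 9 genes in PMN-MDSCs, at 32.5, 24.8 and 44.1 FPKM, and 14.5, 8.22 and 21.1 FPKM in WT Mo-MDSCs. The WT Mo-MDSC samples differed by more than 2-fold among themselves, yet all lay below the PMN-MDSC samples. The log2 difference was -1.27 (SE 0.351, n = 3 per group; limma adjusted p = 0.0268). The call of Clec5a was lost without WT Mo-MDSC replicate 1 (adjusted p = 0.0606 in the limma fit), PMN-MDSC replicate 1 (0.0614) or PMN-MDSC replicate 3 (0.0863). It was kept in the fit blocked by replicate number, and 12 of the 17 alternative fits called Clec5a lower. The order of Clec5a over the 6 Mo-MDSC samples was the order of the granule gene Camp, which was 1996, 1341 and 4319 FPKM in WT Mo-MDSC replicates 1 to 3. Cd177 and Cxcr2 had this order too, while Ngp, Ltf and Retnlg had others. The part of neutrophil RNA in the differences of Clec5a was not tested.

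Neither inhibitory receptor gene passed the test between the subsets. Clec12a encodes MICL, a receptor for uric acid crystals from dying cells. It was measured at 108, 89.3 and 115 FPKM in PMN-MDSCs and at 120, 101 and 120 FPKM in WT Mo-MDSCs. These ranges overlapped, and the log2 difference was 0.13 (95% CI -0.15 to 0.41, adjusted p = 0.423 in the limma fit). Clec12a was called higher with quantile normalization (0.47, limma adjusted p = 0.00890) and after scaling to the same total (0.57, adjusted p = 0.00249). Clec4a2, which encodes DCIR, was 47.1, 36.9 and 51.6 FPKM in PMN-MDSCs and 43.2, 36.8 and 45.8 FPKM in WT Mo-MDSCs. Its log2 difference was -0.10 (95% CI -0.44 to 0.24, adjusted p = 0.614 in the limma fit), and its sign turned over after scaling to the same total (0.34, adjusted p = 0.0313).

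The relatives of DCIR were the 2 genes that rose. Clec4a1 was 93.0, 83.2 and 81.5 FPKM in PMN-MDSCs and 180, 168 and 181 FPKM in WT Mo-MDSCs, a 2.05-fold rise (log2 difference 1.04, SE 0.0805, n = 3 per group; limma adjusted p = 1.09e-04). Clec4a3 was 113, 93.7 and 91.6 FPKM in PMN-MDSCs and 260, 195 and 216 FPKM in WT Mo-MDSCs, a 2.25-fold rise (log2 difference 1.16, SE 0.133, n = 3 per group; limma adjusted p = 6.54e-04). For both genes the lowest WT Mo-MDSC sample was well above the highest PMN-MDSC sample. Clec4a2 lies 137 kb from Clec4a3, and the ratio of Clec4a3 to Clec4a2 was 1.77 to 2.54 in PMN-MDSCs and 4.72 to 6.02 in WT Mo-MDSCs. Thus the 6 Clec4 genes examined here included genes that rose, genes that fell and 1 that did not pass the test, although they share 368 kb of the chromosome. The rule of the study for genes higher in Mo-MDSCs was an unadjusted p-value below 0.05 with more than a 2-fold change. With limma p-values Clec4a1 and Clec4a3 met it, as did 3.55% of all genes. The mirrored rule for lower genes, which the study does not describe, was met by Clec4d, Clec4e, Clec5a and Clec7a and by 6.65% of all genes.

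**Figure D2:**
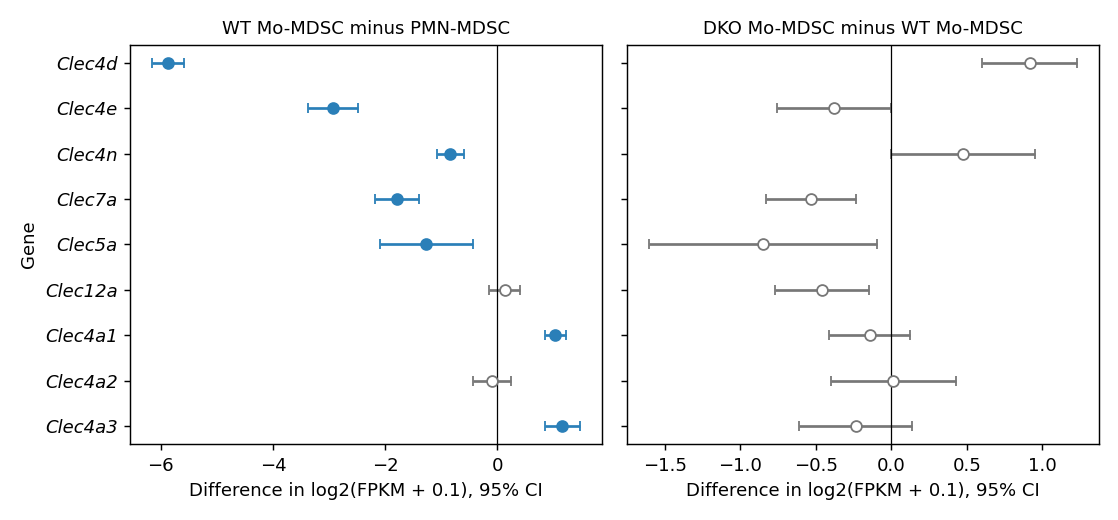
Difference in log2(FPKM + 0.1) of each receptor gene (points) with its 95% CI from limma (bars), for WT Mo-MDSCs minus PMN-MDSCs on the left and DKO minus WT Mo-MDSCs on the right, where filled points have an adjusted p-value below 0.05. On the left 7 points are filled, from -5.87 for Clec4d to 1.16 for Clec4a3, and none on the right, where the axis is narrower and Clec4d is at 0.91.

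The second comparison asks what the deletion of p16 and p21 does in Mo-MDSCs. It uses the same WT Mo-MDSC samples as the first comparison, so that the estimates of the 2 comparisons are not independent. None of the 9 genes passed an adjusted p-value of 0.05 in limma over 11451 genes, where 0.166% of all genes were called higher and 0.0873% lower. At an unadjusted p-value below 0.05 there were 5 of the 9 genes (Clec4d, Clec4e, Clec7a, Clec5a and Clec12a) and 15.0% of all genes. The rule of the study here was an unadjusted p below 0.05 and a fold below 0.75, and its inverse was added for higher genes. With limma p-values Clec4d was higher and Clec7a, Clec5a and Clec12a lower, where 2.57% of all genes were higher and 4.43% lower. Without overlap between the groups Clec4d was higher and Clec4e, Clec7a and Clec12a lower, where 7.96% of all genes were free of overlap in the higher direction and 12.9% in the lower. The median log2 difference was -0.24 over the 9 genes and -0.02 over all genes tested, and the latter was 0.14 after scaling to the same total.

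Clec4d had the smallest p-value of the 9 genes in this comparison. It was 6.13, 5.54 and 6.55 FPKM in WT Mo-MDSCs and 12.9, 12.4 and 9.60 FPKM in the samples labelled DKO, all of which lay above the WT samples. The mean was 1.91 times that of WT Mo-MDSCs, and the log2 difference was 0.91 (SE 0.135, 95% CI 0.60 to 1.23, n = 3 per group) with a limma adjusted p = 0.0602. It passed the threshold with a filter of 1 FPKM in every sample (adjusted p = 0.0462 in limma), after scaling to the same total (0.0157) and with all 9 samples in 1 fit (0.0286). It did not pass when any 1 of the 6 samples was left out (0.0859 to 0.225) or with replicates 2 and 3 only (0.422), which are the samples of the later library numbers. Even so, Clec4d in the samples labelled DKO was 3.20% of its PMN-MDSC mean.

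Clec4e, the neighbour of Clec4d and the partner of its product, did not share this direction. It was 11.7, 10.7 and 12.8 FPKM in WT Mo-MDSCs and 10.4, 9.93 and 6.95 FPKM in the samples labelled DKO. The samples did not overlap, but by a narrow margin, and the log2 difference was -0.38 (95% CI -0.76 to -0.00, adjusted p = 0.329 in the limma fit). The ratio of Clec4d to Clec4e was therefore 0.512 to 0.523 in WT Mo-MDSCs and 1.23, 1.24 and 1.38 in the samples labelled DKO. On the log2 scale the ratio was 1.31 higher (SE 0.0529), with p = 0.1 in a two-sided exact permutation test, the smallest value possible for 3 against 3. Clec4d exceeded Clec4e in all 3 samples labelled DKO and in all 3 PMN-MDSC samples, and in no WT Mo-MDSC sample.

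**Figure D3:**
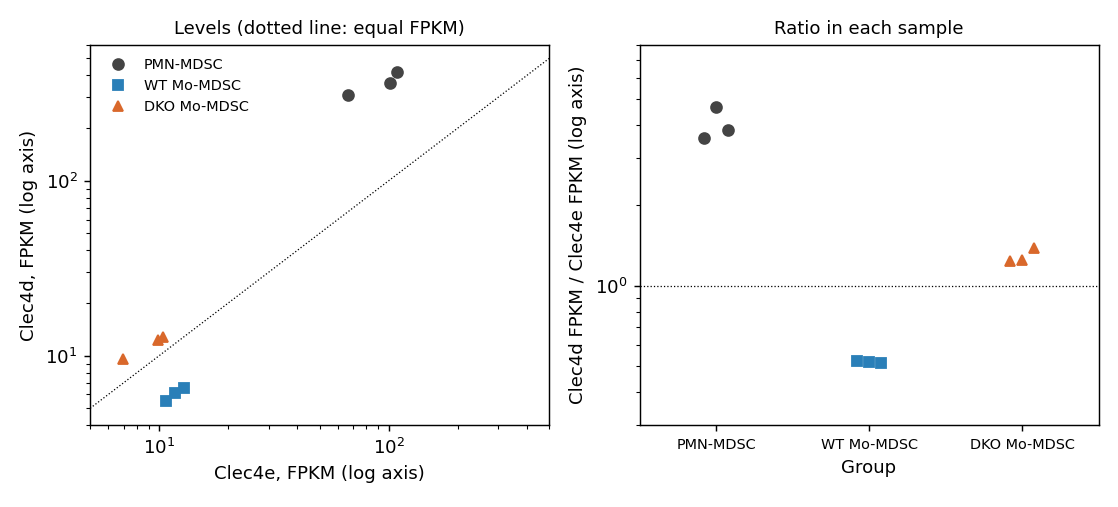
FPKM of Clec4d against that of Clec4e in each sample (left, both axes log, with a dotted line at equal values) and the ratio of the 2 genes in each sample by group (right, log axis, with a dotted line at a ratio of 1). The 3 WT Mo-MDSC samples lie together at 0.512 to 0.523, the 3 DKO Mo-MDSC samples at 1.23 to 1.38 and the 3 PMN-MDSC samples at 3.58 to 4.66.

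The 100 bases upstream of the annotated starts of this pair are shown because the 2 genes lie side by side and yet differed in direction. They are from RefSeq promoters (GRCm38.p6), written 5′ to 3′ on the strand of the gene, for Clec4d chr6:123262007-123262106 on the + strand and for Clec4e chr6:123289872-123289971 on the - strand. Capitals mark matches to TTNCNNAA on either strand, a loose form of the site of C/EBP factors, which drive many myeloid genes.
Clec4d: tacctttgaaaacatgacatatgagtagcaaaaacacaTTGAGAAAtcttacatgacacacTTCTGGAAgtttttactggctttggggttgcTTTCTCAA
Clec4e: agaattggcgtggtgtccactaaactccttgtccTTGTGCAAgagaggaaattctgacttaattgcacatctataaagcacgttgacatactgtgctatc
There are 3 matches in the stretch of Clec4d and 1 in that of Clec4e, but 3 and 2 over their promoter entries of 300 bases. Over the whole promoter entry of 300 bases around the start, 40.7% of 32851 promoters held the motif at least once, and 5 of the 8 receptor genes with an entry did (Clec4d, Clec4e, Clec5a, Clec12a and Clec4a2). GAGGAAG, the core of the site of the myeloid factor PU.1, was in 13.6% of all promoters and in 4 of the 8 (Clec4d, Clec5a, Clec12a and Clec4a1). TGANTCA, the site of AP-1, was in 7.81% of all and in 2 of the 8 (Clec12a and Clec4a2). Both strands were searched, and none of the 3 motifs was found for Clec7a or Clec4a3. These are matches of letters and not sites at which binding was measured.

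Clec7a, Clec12a and Clec5a had log2 differences below 0 with intervals that did not reach 0, without passing the adjusted test. Clec7a was 128, 93.8 and 121 FPKM in WT Mo-MDSCs and 77.4, 83.7 and 73.8 FPKM in the samples labelled DKO, with no overlap and a log2 difference of -0.53 (95% CI -0.83 to -0.24, adjusted p = 0.163 in the limma fit). Clec12a was 120, 101 and 120 FPKM in WT Mo-MDSCs and 97.1, 81.7 and 70.1 FPKM in the samples labelled DKO, again with no overlap, and its log2 difference was -0.46 (95% CI -0.77 to -0.15, adjusted p = 0.212 in the limma fit). Clec5a was 14.5, 8.22 and 21.1 FPKM in WT Mo-MDSCs and 7.09, 9.67 and 6.15 FPKM in the samples labelled DKO, with a log2 difference of -0.85 (95% CI -1.61 to -0.10, adjusted p = 0.291 in the limma fit). For Clec5a the groups overlapped through WT Mo-MDSC replicate 2 and DKO Mo-MDSC replicate 2. Neutrophil genes moved with these values, as 8 of 9 neutrophil markers had lower means in the samples labelled DKO, none of them called. The exception was Mmp8, at 13.5% of the PMN-MDSC mean in WT Mo-MDSCs and 23.7% in the samples labelled DKO. Camp was 995, 1342 and 618 FPKM in the samples labelled DKO, and its order over the 6 Mo-MDSC samples was that of Clec5a. The orders of Cd177 and Cxcr2 were also that of Clec5a, and those of Ngp, Ltf and Retnlg were not. Of the 6 monocyte markers, 5 also had lower means in the samples labelled DKO, none of them called as deposited, and Csf1r was the exception. Their sum was 2035 to 2335 FPKM in WT Mo-MDSCs and 1581 to 1806 FPKM in the samples labelled DKO. The part of neutrophil or monocyte RNA in these differences was not tested.

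**Figure D4:**
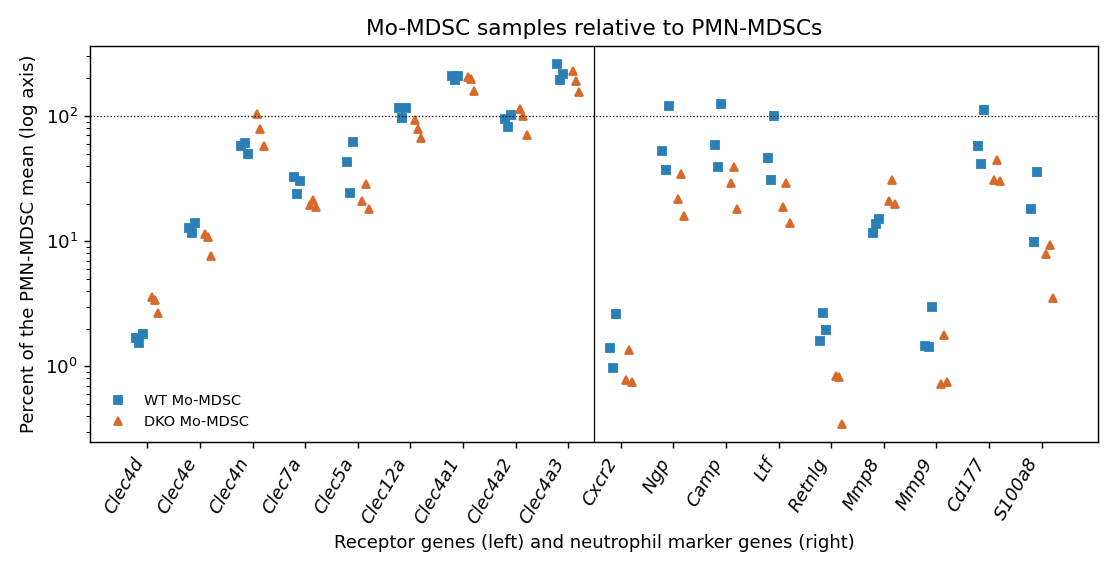
Values of the 6 Mo-MDSC samples as a percent of the PMN-MDSC mean of the same gene (log axis, dotted line at 100%), for the 9 receptor genes on the left and 9 neutrophil markers on the right. Clec4d lies with Cxcr2, Retnlg and Mmp9 at 1.66% to 2.07% in WT Mo-MDSCs on average and is higher in DKO Mo-MDSCs (3.20%), while these 3 markers are lower there (0.666% to 1.09%).

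Clec4n varied most among the samples labelled DKO in FPKM. It was 330, 248 and 181 FPKM there, against 182, 194 and 158 FPKM in WT Mo-MDSCs, so that 2 samples lay above the WT range and 1 within it. The log2 difference was 0.47 (95% CI -0.00 to 0.95, adjusted p = 0.335 in the limma fit). Its order over the 6 Mo-MDSC samples was that of the macrophage gene C1qa, which was 746, 863 and 670 FPKM in WT Mo-MDSCs and 1107, 913 and 671 FPKM in the samples labelled DKO. C1qc had another order, with 886 FPKM in DKO Mo-MDSC replicate 3 and 876 FPKM in WT Mo-MDSC replicate 1. All 8 macrophage markers had higher means in the samples labelled DKO, none of them called. So did all 5 B cell markers and all 4 erythroid markers, again with none called. The part of RNA of these cells in the values of Clec4n was not tested.

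The Clec4a genes overlapped between the genotypes. Clec4a1 was 180, 168 and 181 FPKM in WT Mo-MDSCs and 177, 169 and 135 FPKM in the samples labelled DKO, with a log2 difference of -0.14 (95% CI -0.41 to 0.12, adjusted p = 0.580 in the limma fit). Clec4a2 was 43.2, 36.8 and 45.8 FPKM and 51.8, 45.2 and 32.0 FPKM, with a log2 difference of 0.01 (95% CI -0.40 to 0.43, adjusted p = 0.980 in the limma fit). Clec4a3 was 260, 195 and 216 FPKM and 226, 190 and 155 FPKM, with a log2 difference of -0.24 (95% CI -0.61 to 0.14, adjusted p = 0.516 in the limma fit). DKO Mo-MDSC replicate 3 was the lowest of the 6 Mo-MDSC samples for all 3 of these genes, and also for Clec4e, Clec7a, Clec5a and Clec12a. Total FPKM was also lowest in that sample, at 494252.

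Levels of the 9 genes within a group followed a different order in each subset. In PMN-MDSCs Clec7a, Clec4d and Clec4n led with means of 395, 362 and 317 FPKM, and the ranges of neighbours among these 3 overlapped. They were followed by Clec12a, Clec4a3, Clec4e and Clec4a1 (104 to 85.9 FPKM), whose neighbouring ranges also overlapped, and then by Clec4a2 and Clec5a. In WT Mo-MDSCs Clec4a3 led with a mean of 224 FPKM, above the ranges of Clec4n (178 FPKM) and Clec4a1 (176 FPKM), which overlapped each other. Clec7a and Clec12a came next and overlapped, and Clec4d was last at 6.07 FPKM, below the range of Clec4e. In the samples labelled DKO Clec4n led at 253 FPKM, with a range that overlapped that of Clec4a3, and the last 3 were Clec4d, Clec4e and Clec5a, with neighbouring ranges that overlapped. The sum of the 9 genes was 1354 to 1658 FPKM for PMN-MDSCs, 812 to 946 FPKM for WT Mo-MDSCs and 670 to 991 FPKM for the samples labelled DKO. Clec4d made up 22.7% to 25.2% of this sum in PMN-MDSCs and 0.648% to 0.743% in WT Mo-MDSCs.

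The signalling genes used by these receptors were followed as 6 lists, of which 29 of 34 genes passed the filter in the comparison of the subsets. Of the 29, 15 were lower and 3 higher in WT Mo-MDSCs at a limma adjusted p-value below 0.05, beside 20.6% of all genes lower and 18.5% higher. These counts became 6 lower and 10 higher after scaling to the same total, and 18 lower and 6 higher in the fit blocked by replicate number. The direction of the lists together therefore turned over after scaling to the same total. With quantile normalization it did not, as 2 adaptor, 2 kinase and 3 induced genes were called lower. The CARD9 route and the NF-κB subunits each gave 2 higher and 1 lower on that scale, and the brakes gave none. All 3 adaptor genes fell, and Tyrobp and Hcst did so on every scale. Tyrobp (DAP12) was 3696, 4218 and 5128 FPKM in PMN-MDSCs and 1852, 1631 and 2019 FPKM in WT Mo-MDSCs, a log2 difference of -1.24 (limma adjusted p = 0.00104). Hcst (DAP10), the other partner of MDL-1, fell by 1.84 on the log2 scale. Fcer1g (FcRγ), the partner of Dectin-2, Mincle and MCL, had means of 1312 and 952 FPKM and a log2 difference of -0.46 (limma adjusted p = 0.0428) as deposited, but of -0.01 after scaling to the same total and -0.14 with quantile normalization, where it was not called.

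Of 6 kinase genes 5 were lower as deposited, 1 (Fgr) after scaling to the same total, 2 with quantile normalization and 6 in the fit blocked by replicate number. Syk had means of 248 and 167 FPKM and a log2 difference of -0.57 (limma adjusted p = 0.00124), which was -0.13 after scaling to the same total and -0.14 with quantile normalization and not called in either. Of 4 genes of phosphatases and other brakes, Ptpn6 was lower, with a log2 difference of -0.64 that was -0.19 after that scaling and -0.15 with quantile normalization and not called in either. Cblb had a log2 difference of 0.34 with a limma adjusted p = 0.0489, which was 0.78 and called after scaling to the same total and 0.32 and not called with quantile normalization (adjusted p = 0.0545 in the limma fit). The block by replicate number gave 1 higher and 2 lower among these 4. Of 7 genes of the CARD9 route, Prkcd rose on every scale, and Bcl10 and Vav1 were lower as deposited but were not called after scaling to the same total, while Bcl10 was still called lower with quantile normalization. The block by replicate number gave 3 higher and 3 lower in this list. Card9 itself was 41.3, 51.3 and 58.6 FPKM in PMN-MDSCs and 50.2, 48.6 and 69.3 FPKM in WT Mo-MDSCs, ranges that overlapped, with a log2 difference of 0.15 (adjusted p = 0.540 in the limma fit) that was 0.59 and called higher after scaling to the same total (limma adjusted p = 0.00720). Of 5 NF-κB subunit genes, Nfkb1 rose on every scale, and Rela was lower as deposited and with quantile normalization and not called after scaling to the same total. The block by replicate number gave 2 higher and 1 lower. Among induced genes 3 of the 4 tested fell on every scale. Il1b, the gene of the cytokine interleukin-1β, fell from 1613, 1594 and 2005 FPKM to 33.8, 26.2 and 39.2 FPKM, a log2 difference of -5.72 (limma adjusted p = 3.13e-06). The other 2, Cxcl2 and Ptgs2, were low throughout, with PMN-MDSC means of 5.07 and 4.30 FPKM.

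**Figure D5:**
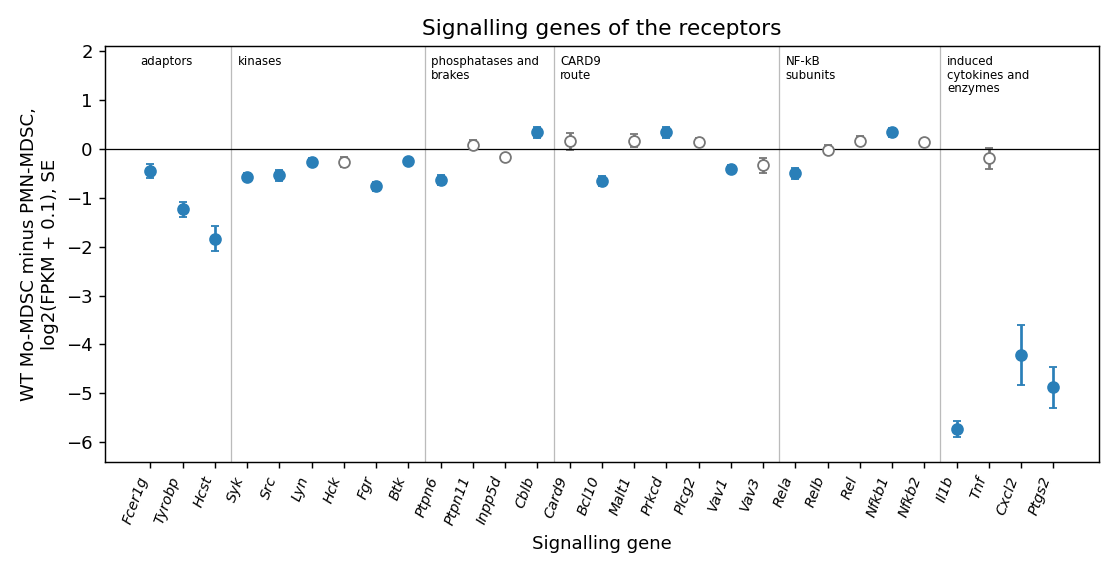
Difference in log2(FPKM + 0.1) between WT Mo-MDSCs and PMN-MDSCs for the 29 signalling genes tested (points), with bars of 1 SE and filled points at an adjusted p-value below 0.05, in 6 lists divided by vertical lines. All 3 adaptors are below 0, from -0.46 for Fcer1g to -1.84 for Hcst, and the lowest point is Il1b at -5.72.

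Between the genotypes none of 27 signalling genes tested was called, and 5 were at an unadjusted p-value below 0.05 in limma, beside 15.0% of all genes. Card9, the adaptor downstream of SYK, was 50.2, 48.6 and 69.3 FPKM in WT Mo-MDSCs and 26.2, 39.8 and 29.2 FPKM in the samples labelled DKO. The groups did not overlap, and the log2 difference was -0.82 (SE 0.189, adjusted p = 0.156 in the limma fit). Syk had means of 167 and 185 FPKM (log2 difference 0.14, SE 0.0883, adjusted p = 0.470 in the limma fit).

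Other C-type lectin and lectin-like receptor genes gave a mixed picture. Of 24 genes listed, 15 passed the filter between the subsets, 3 of which were higher in WT Mo-MDSCs and 3 lower, beside 18.5% and 20.6% of all genes. These counts were 9 higher and 1 lower of 18 after scaling to the same total, and 3 higher and 2 lower of 15 with quantile normalization. In the fit blocked by replicate number they were 6 higher and 5 lower. Clec10a, a galactose-binding lectin of dendritic cells and macrophages, rose from a mean of 0.674 to 9.81 FPKM (log2 difference 3.71), and Cd93 from 4.48 to 32.7 FPKM (log2 difference 2.85). Clec9a, which recognises dead cells in dendritic cells, rose from 2.50 to 5.06 FPKM, and all 3 rose on every scale. Clec1b had means of 42.3 and 30.2 FPKM, and Clec4b1, which shares 75-base windows with Clec4a2, had means of 22.1 and 16.3 FPKM. Both were lower as deposited, with quantile normalization and in the blocked fit, and not called after scaling to the same total. Between the genotypes none of 16 was called, and 5 were at an unadjusted p-value below 0.05 in limma, beside 15.0% of all genes.

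Genes with the pattern nearest to each receptor were sought over the 9 samples, by the root mean square difference of mean-centred log2(FPKM + 0.1) among 11520 genes. The nearest genes were D7Ertd143e for Clec4d (0.403) and Gp49a for Clec4e (0.181). In PMN-MDSCs D7Ertd143e had a mean of 9.90 ± 0.842 FPKM (SD, n = 3) and Gp49a one of 256 ± 29.5 FPKM (SD, n = 3), and both were lower in every Mo-MDSC sample. D7Ertd143e was 0, 0.0367 and 0 FPKM in WT Mo-MDSCs and 0.0819, 0.243 and 0.0753 FPKM in the samples labelled DKO. Its pattern there rests largely on the 0.1 FPKM added before the log. For Clec7a the nearest gene was Fhl3 (0.122), for Clec5a Slco4c1 (0.186), for Clec4n Cmbl (0.0850) and for Clec12a Sat1 (0.0650). For Clec4a1, Clec4a2 and Clec4a3 they were Ddhd2 (0.0798), Mcee (0.0812) and Fam105a (0.0747). Among the 9 receptor genes themselves Clec4a1 and Clec4a3 were nearest to each other (0.112), and Clec4d was furthest from any other, with 1.21 to Clec4e.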

How the data were processed

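RNA of splenic MDSCs was sequenced as stranded mRNA libraries with single-end reads of 75 bases. The authors mapped the reads to mm10 (TopHat2 2.0.13, Bowtie2 2.2.3 and SAMtools 0.1.19 in the submitters' processing notes) and deposited FPKM values from Cuffnorm 2.2.1 covering 23284 gene symbols. The annotation and the scaling used by Cuffnorm are not given in the sources used here. FPKM values are not counts, the number of reads is unknown, and precision is given by the spread between samples (median SE 0.118 and 0.122 on the log2 scale in the 2 comparisons). Relative depth was taken from the step of 1 read in genes under 0.5 FPKM.

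Values were transformed to log2(FPKM + 0.1), so that fold changes of low genes are understated. Fits were made with limma 3.58.1 in R 4.3.3 (trend, two-sided, no covariates) on genes that reached 1 FPKM in 3 or more of the 6 samples compared, with Benjamini-Hochberg adjustment over all genes tested. Groups came from the sample labels. The script was tested on simulated data. The receptor genes, the gene lists and the tests were chosen with earlier results of these data known. The named genes are the 9 receptors, up to 4 called genes per list with the largest difference, Fcer1g, Tyrobp, Syk, Card9 and Ptpn6, and the genes of nearest pattern. Clec4b1 and some genes called in lists of signalling genes were named after their values had been seen. A gene of the kinase list is not reported here. The lists of dendritic cell, T cell, NK cell and erythroid markers summed to 7.55 to 25.9, 12.2 to 28.1, 5.61 to 10.8 and 1219 to 2899 FPKM over the 9 samples. Same-numbered samples of WT Mo-MDSCs and PMN-MDSCs deviated together (correlations over genes of 0.294, 0.483 and 0.200), so the numbers were taken to pair these samples. The main fit nevertheless had no block, and the SEs, intervals and p-values of the receptor genes come from it unless stated. A fit blocked by replicate number is given where it moved a count of calls by over 1.5 times. Sequences came from GENCODE M21 transcripts and RefSeq promoters (Clec4n had no entry), and Python 3.11.15 with pandas 2.3.3 and scipy 1.17.1 was used. Alternatives were other pseudocounts, filters, scalings, fits and subsets of samples.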

Additional observations from a re-analysis of the deposited data

How the results depend on the processing

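The calls of Clec4d, Clec4e, Clec7a, Clec4a1 and Clec4a3 between the subsets were the same in all 17 alternative fits. Clec5a was called in 12 and Clec4n in 16 of the 17, and Clec5a was lost without variance moderation (adjusted p = 0.114 in the gene-by-gene fit), with replicates 2 and 3 only (0.128 in limma) and in 3 leave-outs. Between the subsets the number of receptor genes called higher was 4 after scaling to the same total. Between the genotypes it was 1 (Clec4d) with a filter of 1 FPKM in every sample, after scaling to the same total, with all 9 samples in 1 fit and under the rule of the study, which also gave 3 lower. The log2 difference of Clec4a2 between the subsets turned positive after scaling to the same total (0.34) and with quantile normalization (0.0918), and ranged from -0.239 to 0.00268 when 1 sample was left out. Between the genotypes Clec4a1 turned positive after scaling to the same total (0.0123), and Clec4a2 turned negative with replicates 2 and 3 only (-0.11) and ranged from -0.14 to 0.21 when 1 sample was left out. The cause of these changes was not tested.

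With the replicate number as a block, 2 receptor genes were called higher and 5 lower between the subsets, the same numbers as without it, while over all genes 3167 were called higher and 3417 lower. Between the genotypes the numbers were only shared (correlations of 0.348, 0.226 and -0.07), and the block left 0 receptor genes called, with an adjusted p-value of 0.113 for Clec4d, and 14 genes higher and 6 lower over all genes, against 19 and 10 without it. Depth in reads is unknown, so no limit from counting can be set for the low values of Clec4d and Clec4e in Mo-MDSCs.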
